A study of Mus musculus with 6 samples.

Results

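Mammary tumor tissue was processed on a microfluidic digestion device in intervals, and the cells released during the 15 min interval were compared here with those recovered from the remaining tissue at the 60 min interval. The members were the cells of these 2 single-cell RNA-seq libraries that carried 200 to 4000 detected genes and at most 25% mitochondrial UMIs (unique molecular identifiers, each counting 1 captured transcript). 5802 cells of the 15 min library and 6024 cells of the 60 min library met these limits, 11826 of the 16350 cells deposited for both and of the 58561 cells in the 6 libraries of the series. Both libraries came from tumors of 10 week old female mice of the MMTV-PyMT strain, in which a viral oncogene is expressed under a promoter active in mammary epithelium. The transgene has no value in these data. The device held tissue minced to small pieces in type I collagenase, and the eluted suspension went through an integrated dissociation and filter device in 1 pass. After the 15 min elution the enzyme solution was replaced and digestion went on to 60 min, so that the 60 min library holds cells released later and exposed for longer. DNase treatment, red cell lysis and a sort of cells negative for the dead-cell dye SytoxBlue followed in all libraries. A tumor control library, digested for 60 min without the device, is given beside the values for reference, with 5736 cells within the same limits. The labels name no animal, while the study's reporting summary says that device and control conditions of a replicate shared a source mouse. Each library is a single sample, so no test between them was possible and all intervals below cover counting error only.

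Digestion at body temperature leaves cells alive and transcribing, and it is known to induce transcripts during the procedure itself. Immediate early genes such as Fos, Jun and Egr1 encode transcription factors that are induced within minutes and are transient. Heat shock chaperones, which refold proteins, are induced by heat shock factors when proteins are damaged. Macrophages and endothelial cells additionally produce cytokines and adhesion molecules when stimulated. The cell types of a solid tumor also differ in how readily they leave the tissue, since epithelial cells are held by junctions to each other while stromal and vascular cells are embedded in matrix and basement membrane.

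Depth was similar in both libraries, whose mapped reads had been equalized across libraries by the authors. The kept cells summed to 54841077 UMIs at 15 min and 58014175 UMIs at 60 min, with medians of 9228 and 9476 UMIs and of 2655 and 2477 genes a cell. The median mitochondrial share was 6.95% and 6.55%, but it was 7.97% and 10.2% in the epithelial-like cells described below. The upper limit on genes removed 1625 cells at 15 min and 1295 at 60 min, the mitochondrial limit 771 and 835. Only 21 cell barcodes occurred in both libraries. The doublet caller Scrublet marked 2.17% and 2.02% of the cells that met the lower limit on genes. That set includes cells removed by the upper limit on genes or the mitochondrial limit. Marked cells within all limits were retained, and their share of the kept cells was not computed.

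Epithelial cells made up most of the 15 min library, whereas the 60 min library held larger shares of endothelial cells, fibroblasts, pericytes and macrophages. Each cell was placed in the class whose markers it expressed in the largest fraction, and the class names therefore mean expression of those marker lists. Epithelial-like cells, defined by Epcam, keratins and claudins, numbered 3971 at 15 min and 2561 at 60 min, which is 68.4% (95% exact binomial interval 67.2 to 69.6) and 42.5% (41.3 to 43.8) of the kept cells. The control held 60.8%. The difference of -25.9 percentage points (Newcombe interval -27.6 to -24.2) was larger than the counting error. Macrophage- and monocyte-like cells, defined by Csf1r, complement C1q and others, were 17.1% at 15 min and 26.0% at 60 min, 995 and 1566 cells, with 18.0% in the control.

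The largest relative differences among the 7 classes were in stromal and vascular cells. Endothelial-like cells, marked by Pecam1, Cdh5 and other vessel genes, were 4.50% at 15 min (3.98 to 5.06) and 13.4% at 60 min (12.5 to 14.3), 261 and 806 cells. That share was 2.97-fold higher in the later interval, and the control stood at 5.74%. Fibroblast-like cells, marked by collagens and Pdgfra, were 1.22% (0.957 to 1.54) and 5.06% (4.52 to 5.65), 71 and 305 cells, a 4.14-fold difference. That is 3.84 percentage points, or 6.83 without the upper limit on genes. The control held 0.715% of them, fewer than either interval. Pericyte-like cells, which wrap small vessels and carry Rgs5 and Notch3, were 31 cells at 15 min and 84 at 60 min, or 0.534% and 1.39%.

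Among the leukocytes, T- and NK-like cells were 3.95% at 15 min and 5.64% at 60 min, 229 and 340 cells. Granulocyte-like cells, marked by S100a8, S100a9 and Csf3r, went the other way, with 1.95% at 15 min and 1.13% at 60 min. The control had 4.83% granulocyte-like cells, above both intervals. When cells were thinned to 2000 UMIs before the classes were drawn, the granulocyte difference was -0.105 points in place of -0.819, and 75 of 113 and 35 of 68 of these cells were too shallow to be thinned. Cells with markers of several classes were 0.931% and 1.16%, and cells reaching no class 1.33% and 3.72%. Within 3 classes the assignment was clear, with 1.59% to 3.58% of epithelial-, macrophage- and endothelial-like cells near the limit of the marker rule in either library. T- and NK-like cells were near it more often, 16.2% at 15 min and 20.9% at 60 min, as were granulocyte-like cells, 14.2% and 16.2%.

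**Figure D1:**
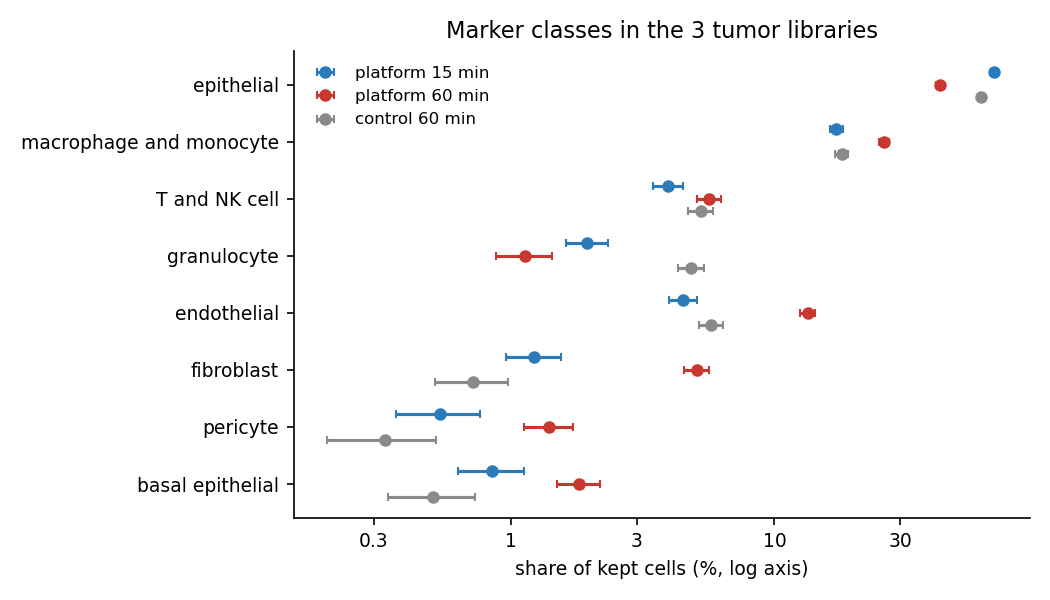
Share of kept cells in each marker class (percent, log axis) in the 15 min, 60 min and control tumor libraries, with bars for the 95% exact binomial interval. Epithelial-like cells made up 68.4% of the 15 min library and 42.5% of the 60 min library, while endothelial- and fibroblast-like cells were 2.97 and 4.14 times as frequent in the latter.

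The epithelial class itself was not the same in both intervals. Cells with basal or myoepithelial markers, the contractile outer layer of the mammary duct, were 49 of 3971 epithelial-like cells at 15 min and 109 of 2561 at 60 min. Those are 1.23% (0.914 to 1.63) and 4.26% (3.51 to 5.11), and after thinning 0.440% and 2.89%. Of the basal markers in the epithelial class, the basal keratin Krt14 was at 111 CPM (counts per 1000000, the UMIs of a gene per 1000000 UMIs of the pooled cells) at 15 min and 344 CPM at 60 min. Another basal keratin, Krt5, was at 8.23 and 36.5 CPM, and the smooth muscle actin gene Acta2 at 6.34 and 30.7 CPM. In the control these 3 genes stood at 101, 4.44 and 5.37 CPM, near the 15 min values. Cells with markers of the cell cycle were 0.957% of epithelial-like cells at 15 min and 2.81% at 60 min, or 0.285% and 1.10% after thinning.

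Pooled over all cells, genes of stroma, vessels and inflammation were higher at 60 min, and genes of secretory epithelium were lower. Ratios were taken between the summed CPM of the libraries for 13421 genes with at least 100 UMIs over both, and a gene is counted here when its ratio was 2-fold or more. At that limit 1030 genes, 7.67% of those compared, were higher at 60 min and 595 genes, 4.43%, were higher at 15 min. With the median log ratio of well measured genes set to 0, in place of scaling by the total, the split was 1317 and 326. The median log2 ratio of all compared genes was -0.18, and it was -0.20, -0.22, -0.13, -0.06, -0.20 and -0.02 within the epithelial, macrophage, T and NK, granulocyte, endothelial and fibroblast classes, so that ratios below are read against these values.

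For 631 of the 1030 genes higher at 60 min, and for 819 of all 13421 compared, the shares of the classes alone gave a 2-fold ratio on that side. If each class kept its own mean level over both libraries and only its share moved, these 631 would still reach 2-fold, and 136 of the 1030 would stay under 1.5-fold. With this composition term taken out, 199 of the 1030, and 218 of all compared, were 2-fold or more higher at 60 min. On the other side no gene could reach 2-fold from the shares, because the largest fall of a class was that of the epithelial share of UMIs from 72.4% to 43.0%. Of the 595 genes higher at 15 min, 189 would stay under 1.5-fold from the shares alone, and 86 were 2-fold or more lower at 60 min beyond them, beside 150 of all compared. Fewer cells of a class and less RNA per cell cannot be told apart in the pooled sums, so the class sums below are used for the levels per class.

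**Figure D2:**
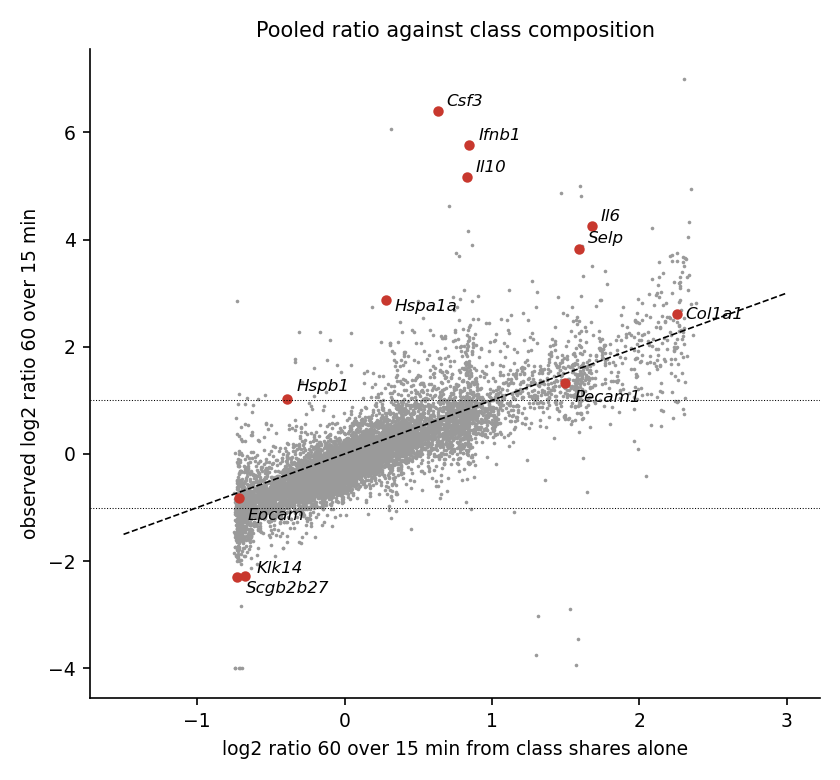
Observed log2 ratio of each compared gene between the pooled 60 and 15 min libraries against the log2 ratio that the class shares alone would give. Many genes 2-fold or more higher at 60 min lie where the shares alone give 2-fold (631 of 1030), and 199 lie 2-fold or more above that line.

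Matrix genes and adhesion receptors of vessels were higher in the pooled 60 min library. Of 15 interstitial matrix genes, such as fibrillar collagens and the small proteoglycan Lum, 14 were 2-fold or more higher at 60 min in the pooled sums, with a median log2 ratio of 2.41. Within fibroblast-like cells 2 of the 15 were, and the median was 0.32. The cell-adhesion receptor of activated endothelium Selp was at 5.12 CPM at 15 min, 73.0 CPM at 60 min and 9.42 CPM in the control. Its relative Sele, which slows leukocytes on the vessel wall, was at 2.15, 31.9 and 5.25 CPM. Of the 60 min UMIs, 97.3% for Selp and 98.4% for Sele lay in the endothelial class, in 329 and 293 cells. Within that class Selp was at 137 CPM at 15 min and 627 CPM at 60 min, a 4.57-fold difference, and Sele at 57.8 and 277 CPM, a 4.78-fold difference.

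Cytokines stood at the top of the pooled genes higher at 60 min. The granulocyte growth factor Csf3 had 19 UMIs in 11 cells at 15 min and 1689 UMIs in 188 cells at 60 min, 0.346 and 29.1 CPM, which is a log2 ratio of 6.39 (95% exact interval 5.75 to 7.13). The control stood above both, at 64.5 CPM. At 60 min 58.1% of Csf3 UMIs were in endothelial- and 31.6% in epithelial-like cells. Il6, an acute inflammatory cytokine, was at 1.20 CPM at 15 min, 22.9 at 60 min and 4.11 in the control, and 49.2% and 32.8% of its 60 min UMIs were in endothelial- and fibroblast-like cells. The anti-inflammatory cytokine Il10 was at 1.06, 37.7 and 46.5 CPM, with 95.3% of its 60 min UMIs in macrophage-like cells.

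Some of the other leading genes came from few cells. Reg1 had 3 UMIs at 15 min and 468 at 60 min, 456 of them in 29 fibroblast-like cells. Dio3, which inactivates thyroid hormone, was at 0.128 and 3.95 CPM, with 98.7% of its 60 min UMIs in 63 fibroblast-like cells. The neutrophil chemokine Cxcl3 was at 0.219 and 5.40 CPM, and at 31.3 CPM in the control. The transcription factor gene Msc was at 0.365 and 7.27 CPM, with 0.257 CPM in the control. For 2 more, most UMIs lay in 1 cell of the 60 min library, 128 of 142 for the granzyme Gzmd and 197 of 329 for the neuropeptide Nts.

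The 12 named pooled genes lower at 60 min included secreted products, granulocyte and mast cell genes and hemoglobins. Scgb2b27, a secretoglobin, was at 435 CPM at 15 min in 1687 cells and at 88.9 CPM at 60 min in 631 cells, with 393 CPM in the control. Dcpp1 was at 31.5, 4.40 and 5.80 CPM, and the secreted protease Klk14 at 22.4, 4.62 and 2.29 CPM. For these last 2 the control was nearer the 60 min library. Cacng5, a calcium channel subunit, was at 5.03 and 0.207 CPM, and Gm4847 at 4.67 and 0.103 CPM, all 256 of its 15 min UMIs being in 12 epithelial-like cells.

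The remaining 7 rested on single cells. Ngp and Camp, secondary granule genes of immature granulocytes, had 580 and 328 UMIs at 15 min and 0 at 60 min. With the 0 set to a floor of 3 UMIs in the library, they were 205-fold and 116-fold lower. Of the 15 min UMIs, 1 cell held 364 and 179. One cell held 758 of the 783 hemoglobin Hba-a1 UMIs and 1127 of the 1149 Hbb-bs UMIs of the 15 min library. Without the cell holding most UMIs of the gene in each of the libraries, the log2 ratios of Hba-a1 and Hbb-bs turned to 0.48 and 1.19. At 60 min those cells held 17 of 54 and 58 of 111 UMIs. Most UMIs of Scgb1b27, 809 of 1131, and of the mast cell proteases Mcpt4 and Cma1, 116 of 190 and 215 of 360, were also in 1 cell each.

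Heat shock chaperones were higher at 60 min over the pooled cells and in 5 of the 6 classes with enough cells, while the granulocyte class gave no settled direction. In the pooled sums 10 of 14 were 2-fold or more higher at 60 min and 0 were lower, with a median log2 ratio of 1.34 beside -0.18 for all genes. Hspa1a and Hspa1b encode the inducible HSP70 chaperone and are near-identical copies on chromosome 17 (chr17:34969190-34972156 and chr17:34956436-34959238, minus strand), so that reads may be split between them. Pooled, Hspa1a was at 311 CPM at 15 min, 2272 CPM at 60 min and 765 CPM in the control. Hspa1b was at 145, 976 and 381 CPM.

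Heat shock factors are known to bind repeats of GAA and its complement in promoters. The 250 bases before the start of Hspa1a and Hspa1b (RefSeq, GRCm38.p6) are shown because both genes were among the named genes of several classes, and that of the small chaperone gene Hspb1 because it held 2 matches. Capitals mark GAANNTTC, a pair of such repeats that reads the same on both strands, and no other motif was searched.
Hspa1a, chr17:34972157-34972406, minus strand: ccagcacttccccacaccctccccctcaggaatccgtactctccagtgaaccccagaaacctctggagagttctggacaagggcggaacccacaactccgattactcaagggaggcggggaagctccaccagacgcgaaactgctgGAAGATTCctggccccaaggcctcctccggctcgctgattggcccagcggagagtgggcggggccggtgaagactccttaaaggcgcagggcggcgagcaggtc
Hspa1b, chr17:34959239-34959488, minus strand: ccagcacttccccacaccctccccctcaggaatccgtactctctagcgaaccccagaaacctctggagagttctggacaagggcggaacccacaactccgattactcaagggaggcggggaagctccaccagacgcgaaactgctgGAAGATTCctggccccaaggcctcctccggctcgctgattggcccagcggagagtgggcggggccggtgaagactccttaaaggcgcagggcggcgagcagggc
Hspb1, chr5:135887669-135887918, plus strand: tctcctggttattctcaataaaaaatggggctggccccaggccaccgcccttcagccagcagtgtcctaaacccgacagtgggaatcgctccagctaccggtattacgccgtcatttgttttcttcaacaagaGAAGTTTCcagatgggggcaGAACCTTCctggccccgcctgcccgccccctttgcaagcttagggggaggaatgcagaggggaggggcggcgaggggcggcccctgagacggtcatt
The windows of Hspa1a and Hspa1b were the same at 247 of 250 bases, and the match began 104 bases before the start in both. Of the 11 chaperone genes of the list found in the promoter table, 6 held the motif in at least 1 window (54.5%), against 2088 of 27025 genes of the table (7.73%). The matches of Hspd1 and Hspe1, neighbouring genes on opposite strands, were the same 8 bases (chr1:55088064-55088071), so the 6 genes do not stand for separate promoters. Genes with several starts had several windows. A match is a description of the letters, not a measured site.

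Within epithelial-like cells the later interval had higher chaperone transcripts, while most AP-1 and other immediate early genes differed by less than 2-fold. The cells of this class had medians of 2772 genes at 15 min and 2444 at 60 min beside the higher mitochondrial share at 60 min, and the part of either in the ratios was not tested. The class sums had 11502 genes with enough UMIs, of which 216 (1.88%) were 2-fold or more higher at 60 min and 108 (0.939%) at 15 min, or 302 and 52 with median scaling. Hspa1a was at 274 CPM at 15 min and 1956 CPM at 60 min, a 7.15-fold difference, with 841 CPM in the control. Hspa1b was at 165, 916 and 457 CPM. The chaperone list had 5 of 13 members at 2-fold or more and a median log2 ratio of 0.81, beside -0.20 for all genes of the class. Hspb1 was at 849 and 2342 CPM and Hsp90aa1, an inducible HSP90 chaperone, at 599 and 1538 CPM.

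Of the AP-1 family, the transcription factors formed by Fos and Jun proteins, 2 of 9 tested members were 2-fold or more higher at 60 min in epithelial-like cells, as were 2 of 16 other immediate early regulators. The AP-1 members were Fosl1, at 1.99 and 12.3 CPM, and the small Maf factor Maff, at 15.4 and 74.0 CPM. In the control both were higher still, at 41.7 and 124.7 CPM. Fos itself was at 2748 and 3273 CPM and Jun at 2642 and 2718 CPM, differences of less than 1.5-fold. The chemokine gene Ccl20 was at 0.529 and 6.69 CPM, from 6 and 9 cells, and the retinoic acid hydroxylase Cyp26a1 at 1.03 and 8.42 CPM, from 7 and 47 cells. The non-coding transcript Gm26917 was at 155 CPM at 15 min, 661 CPM at 60 min and 2018 CPM in the control. Ccl22 also led this class, with 1 UMI at 15 min and 122 at 60 min, 63 of which were in 1 cell.

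Of 10 mitotic genes, 9 were 2-fold or more higher at 60 min in epithelial-like cells, with a median log2 ratio of 1.28, although all were at low levels. The proliferation marker Mki67 was at 5.41 and 11.7 CPM and the topoisomerase Top2a at 5.64 and 13.7 CPM. The ubiquitin-conjugating enzyme gene Ube2c was at 5.29 and 17.5 CPM. The summed level of the list was 45.2 CPM at 15 min, 112 CPM at 60 min and 109 CPM in the control. In macrophage-like cells the same list lay below its 15 min level, with a median of -0.81, and in T- and NK-like cells with a median of -0.69 over 4 genes. In endothelial-like cells it was at 0.03.

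Several named genes were lower in the later epithelial cells, while the median of the milk protein list was not below that of the class. Scgb2b27 was at 594 CPM at 15 min, 203 CPM at 60 min and 616 CPM in the control, from 1562 and 592 cells. Dcpp1 was at 43.3 and 7.82 CPM and Klk14 at 30.7 and 8.98 CPM. The T-box transcription factor gene Tbx15 was at 11.4 and 3.09 CPM, and the matrix protein gene Comp at 5.71 and 1.44 CPM. Among milk proteins 0 of 9 were 2-fold different, with a median of -0.13 beside -0.20 for all genes of the class. Csn3, the kappa casein gene, was at 14716 and 13424 CPM and Wap at 83.6 and 85.1 CPM. Single members were lower, with Lalba at 1967.2 and 1085.5 CPM and Csn1s2a at 31.8 and 20.1 CPM. The hypoxia and glycolysis list had 0 of 12 members at 2-fold and a median of -0.47, with the lactate dehydrogenase gene Ldha at 1317 and 903 CPM.

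Free RNA differed between the libraries and moved with some class sums. Fibroblast markers, which epithelial cells lack, summed to 31.3 CPM in the epithelial class at 15 min and 129 CPM at 60 min. In macrophage-like cells they were at 21.5 and 83.4 CPM, in T- and NK-like cells at 22.4 and 88.5 CPM and in endothelial-like cells at 22.1 and 85.8 CPM, so that the ratio was similar in each. Over all cells the fibroblast markers stood at 557 and 2780 CPM. The interstitial matrix list was therefore not read in other classes than fibroblasts. In epithelial-like cells the cytokine list had 10 of 13 members at 2-fold or more, with a median of 1.68, and 0.95 over 4 genes once the free RNA was taken off. Its summed level in the class was 180 CPM at 15 min and 648 CPM at 60 min, and in macrophage-like cells 13981 and 33523 CPM. MHC class II genes, which T cells lack, had 145 and 499 CPM in the T and NK class. Macrophage markers there summed to 58.9 and 76.4 CPM and epithelial markers to 509 and 221 CPM. The source of these MHC class II transcripts was not tested. The part of free RNA in each single ratio was not tested.

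Macrophage-like cells of the later interval had higher cytokine and chaperone transcripts, while several immediate early genes were lower. Of 9247 genes with enough UMIs in the class, 243 (2.63%) were 2-fold or more higher at 60 min and 201 (2.17%) at 15 min, or 289 and 118 with median scaling. The chaperone list had 9 of 13 members at 2-fold or more and a median log2 ratio of 1.61. Hspa1a was at 569 CPM at 15 min, 3332 CPM at 60 min and 782 CPM in the control. Hspa1b was at 112, 1340 and 305 CPM, and the co-chaperone Hsph1 at 31.9, 233 and 60.7 CPM. For these 3 the control was nearer the 15 min library than the 60 min library.

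Interferon beta led the named genes of the class. Ifnb1 (chr4:88522025-88522774, minus strand), the antiviral interferon of stimulated macrophages and fibroblasts, had 16 UMIs in 7 macrophage-like cells at 15 min and 904 UMIs in 164 cells at 60 min. Those are 1.66 and 49.1 CPM, a log2 ratio of 4.89 (4.18 to 5.70), with 4.53 CPM in the control. Of all Ifnb1 UMIs of the 60 min library, 98.7% were in this class. Interferon-stimulated genes did not share 1 direction, as 2 of 12 were 2-fold or more higher at 60 min and the median was -0.24. Isg15 was at 186 and 376 CPM, whereas Ifit2 was at 45.9 and 26.2 CPM.

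All 16 cytokines and chemokines tested in macrophage-like cells lay above their 15 min level, and 12 of them by 2-fold or more, with a median of 1.58. The chemokine Cxcl2, which draws neutrophils, was at 1737 CPM at 15 min, 7789 CPM at 60 min and 6296 CPM in the control. Tnf was at 291, 991 and 392 CPM, and Ccl4 at 4054, 8917 and 2637 CPM. Il10 was at 5.08, 113 and 187 CPM. Among other genes of the class, the costimulatory ligand Tnfsf9 was at 7.36 and 104 CPM, the microRNA host gene Mir155hg at 2.18 and 37.1 CPM and the vasoconstrictor gene Edn1 at 0.414 and 11.02 CPM. Gdf15, a stress-induced secreted factor, was at 34.9, 387 and 75.1 CPM.

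Several immediate early genes stood apart in this class. Fos was at 4507 CPM at 15 min, 2816 CPM at 60 min and 835 CPM in the control. Jun was at 3771, 2454 and 633 CPM and Egr1, a zinc finger factor induced by growth signals, at 1613, 735 and 216 CPM. Ier2 was at 1762, 656 and 368 CPM. All 4 were highest in the 15 min library and lowest in the control. The summed AP-1 subunits were at 16620 CPM at 15 min and 13046 CPM at 60 min, with 6304 CPM in the control. Their median log2 ratio was -0.08, and 0.05 when the median of well measured genes was set to 0, so the sum rather than the median carries the direction. In contrast Gadd45b, a growth arrest and DNA damage gene, was at 217, 645 and 680 CPM. The list of other immediate early regulators summed to 10633 CPM at 15 min and 9145 CPM at 60 min. Its median log2 ratio was 0.25, beside -0.22 for all genes of the class, so these genes did not share 1 direction.

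The 12 stress genes that the study selected to show for its kidney and tumor data mixed both kinds. Whether these samples entered their choice is not stated, so they are not taken as independent evidence of direction. In macrophage-like cells 2 of the 12 were 2-fold or more higher at 60 min and 1 at 15 min, with a median of -0.02, which median scaling turned to 0.11. In endothelial- and fibroblast-like cells 4 of 12 were higher by that limit and 0 lower, with medians of 0.72 and 0.90. In epithelial-like cells 2 were, with a median of 0.27. In endothelial-like cells Atf3 was at 257 and 1252 CPM, and in fibroblast-like cells the nuclear receptor Nr4a1 at 51.0 and 213 CPM.

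**Figure D3:**
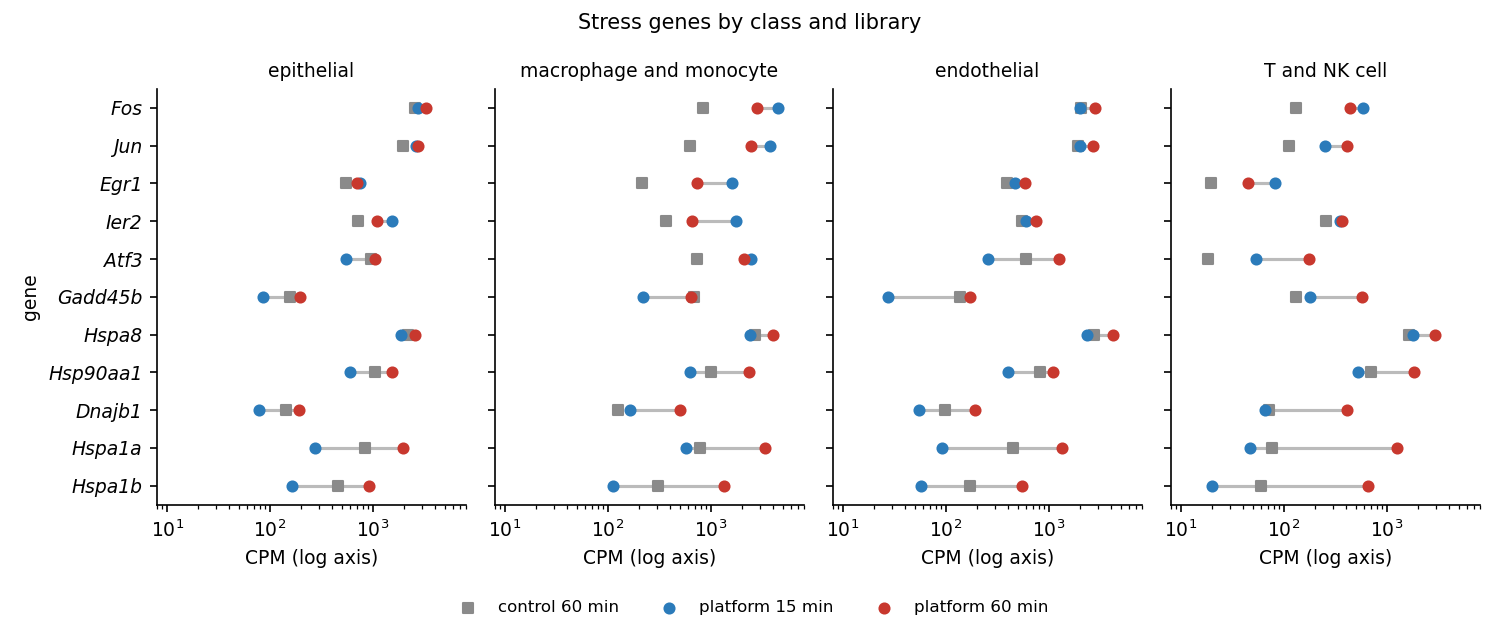
Level of stress genes (CPM, log axis) in the marker classes for the 15 min, 60 min and control tumor libraries, 1 panel a class. Hspa1a stands higher at 60 min than at 15 min in each class drawn, while Fos, Jun and Egr1 stand lower at 60 min in macrophage-like cells (Fos 4507 and 2816 CPM).

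Among the named genes lower at 60 min in macrophage-like cells were secreted proteins and unannotated transcripts. Retnla, a secreted product of alternatively activated macrophages, was at 375 CPM at 15 min, 115 CPM at 60 min and 395 CPM in the control. The lysozyme gene Lyz1 was at 158, 41.4 and 261 CPM and the integrin gene Itgb8 at 24.3, 7.38 and 13.5 CPM. The nucleotide kinase Cmpk2 was at 12.6, 2.77 and 2.47 CPM. The unannotated transcripts Gm26802, Gm26522 and Gm15889 were at 89.4, 166 and 7.46 CPM at 15 min and at 8.90, 48.7 and 1.79 CPM at 60 min. Gpnmb was at 16.3 and 1.63 CPM, with 105 of its 157 UMIs at 15 min in 1 cell. The class markers C1qa and Csf1r differed little, at 7372 and 7089 CPM and at 759 and 658 CPM. Other markers of the class differed more, with Cd14 at 1608 and 2988 CPM and Mrc1 at 139 and 194 CPM. Fcgr1 went the other way, at 302 and 245 CPM.

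Markers of dendritic cells also differed inside this class and over the library. In the class the migratory dendritic cell receptor Ccr7 was at 0.207 CPM at 15 min and 13.4 CPM at 60 min, and Ccl22 at 0.622 and 19.3 CPM. The cross-presenting dendritic cell receptor Xcr1 was at 0.414 and 5.43 CPM. The plasmacytoid marker Siglech went the other way, at 34.4 and 17.4 CPM. Summed over all cells the 8 dendritic markers were at 27.0 CPM at 15 min, 75.0 CPM at 60 min and 56.4 CPM in the control.

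T- and NK-like cells had the highest median ratio of the chaperone list among the 6 classes. Of 4101 genes with enough UMIs, 132 (3.22%) were 2-fold or more higher at 60 min and 54 (1.32%) at 15 min. Hspa1a was at 47.4 CPM at 15 min, 1269 CPM at 60 min and 76.5 CPM in the control, a 26.8-fold difference. Hspa1b was at 19.9, 658 and 59.4 CPM, and the co-chaperone Dnajb1 at 65.3, 406 and 72.1 CPM. The list had 8 of 12 members at 2-fold or more and a median log2 ratio of 1.79. For these 3 genes the control stood near the 15 min library.

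The granzymes Gzmb and Gzma were among the named genes lower at 60 min in T- and NK-like cells. Another granzyme, Gzmd, was higher, with 128 of its 142 UMIs at 60 min in 1 cell. Of the Gzma UMIs at 15 min, 190 of 482 were in 1 cell. The class had medians of 2085 genes at 15 min and 1584 at 60 min, and the part of this in the ratios was not tested. The granzyme Gzmb, a protease that kills target cells, was at 1745 CPM at 15 min, 617 CPM at 60 min and 1668 CPM in the control. Gzma was at 309, 131 and 246 CPM and the surface protein gene Cd7 at 1433, 646 and 1264 CPM. The survival gene Bcl2 was at 799, 352 and 324 CPM. Cd3e and Trac, parts of the T cell receptor complex, were at 580 and 429 CPM and at 321 and 321 CPM. Among genes higher at 60 min, the nuclear receptor Rora was at 40.3 and 304 CPM, Areg, a growth factor of tissue lymphocytes, at 24.98 and 142 CPM and Ramp3 at 8.97 and 89.5 CPM. Ifrd1 was at 101 and 531 CPM. The interferon-stimulated gene Ifit1 was at 64.0 and 15.1 CPM and Isg15 at 214 and 115 CPM. Of 5 cytokines tested 0 reached 2-fold, with a median of 0.13 that turned negative once the free RNA was taken off (-0.37).

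Granulocyte-like cells were few, and their sums carried 247210 UMIs at 15 min and 158958 at 60 min. Only 521 genes had enough UMIs, of which 53 (10.2%) were 2-fold or more higher at 60 min and 29 (5.57%) at 15 min. Inflammatory genes led at 60 min. Cxcl2 was at 6404 CPM at 15 min, 32178 CPM at 60 min and 9960 CPM in the control, and the interleukin gene Il1a at 16.2, 755 and 275 CPM. Cxcl1 was at 76.9, 1019 and 275 CPM. Nlrp3, the inflammasome sensor, was at 198, 1793 and 1271 CPM, and Acod1, which makes itaconate, at 227, 2038 and 1720 CPM. Of 7 cytokines tested 5 were 2-fold or more higher at 60 min, with a median of 1.92. Markers of macrophages in this class summed to 7306 CPM at 15 min and 12381 CPM at 60 min, and their part in these ratios was not tested.

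In granulocyte-like cells the immediate early genes were mixed. Of 6 AP-1 subunits 2 were 2-fold or more lower at 60 min and 1 was higher, and of 10 other immediate early regulators 3 were lower, 0 were higher and the median was -0.15. Fos was at 3402 CPM at 15 min, 1038 CPM at 60 min and 366 CPM in the control. At 60 min 1 cell held 95 of the 165 Fos UMIs of the class. Ier2 was at 2273, 786 and 435 CPM and the small GTPase gene Rhob at 388, 94.4 and 91.2 CPM. The summed AP-1 subunits were at 16067 and 10399 CPM, with a median log2 ratio of -0.52. When cells were grouped by Leiden clusters in place of markers, that median was 0.11. The class markers Retnlg and Cxcr2 were at 7686 and 3070 CPM and at 987 and 384 CPM. The markers did not share 1 direction, as G0s2 was at 2047 and 3164 CPM. Hdc and Csf3r differed little, at 1404 and 1485 CPM and at 1096 and 1038 CPM. Ifitm6 was at 979 and 132 CPM. The granule genes Ngp, Camp and Ltf were also lower, but 364 of 574, 179 of 324 and 76 of 151 of their 15 min UMIs were in 1 cell, and 188 of 190 Fabp4 UMIs at 60 min were in 1 cell as well. The chaperone list had 4 tested members and 1 at 2-fold, Hspa8, at 405 and 837 CPM. Its median of 0.24 turned to -0.45 with the mean of per-cell shares and to -0.11 without Scrublet doublets.

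Endothelial-like cells of the later interval had higher levels of cytokine, chemokine and adhesion genes. Of 7305 genes with enough UMIs, 167 (2.29%) were 2-fold or more higher at 60 min and 86 (1.18%) at 15 min, or 183 and 54 with median scaling. Csf3 had 0 UMIs in 261 cells at 15 min and 981 UMIs in 88 of 806 cells at 60 min. With the 0 set to a floor of 3 UMIs of 1987946 it was 98.9-fold higher, at 149 CPM. The control stood at 141 CPM. Cxcl1 was at 25.7 CPM at 15 min, 316 CPM at 60 min and 71.3 CPM in the control. Il6 was at 12.1, 99.5 and 15.6 CPM, from 18 of 261 cells and 191 of 806 cells. Icam1, to which leukocytes bind, was at 118, 733 and 357 CPM.

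Feedback regulators were higher at 60 min as well. Of 13 feedback inhibitors, which end signalling through MAP kinases and NF-kappaB, 8 were 2-fold or more higher at 60 min in endothelial-like cells, with a median log2 ratio of 1.12. Nfkbia was at 378 CPM at 15 min and 1548 CPM at 60 min, and Tnfaip3 at 17.1 and 75.9 CPM. Of 8 p53 targets and cell death genes 5 were, with a median of 1.29, among them the cell cycle inhibitor Cdkn1a at 87.5 and 255 CPM. Hspa1a was at 91.0, 1331 and 450 CPM, and 7 of 14 chaperones reached 2-fold, with a median of 1.20. The deadenylase gene Noct was at 17.1 and 149 CPM.

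Vessel matrix genes were lower in the later endothelial-like cells without reaching 2-fold. All 10 basement membrane genes tested had ratios below 0 on the log2 scale, from -0.96 to -0.43, with a median of -0.57 beside -0.20 for all genes of the class. The collagen gene Col4a1 was at 4714 CPM at 15 min, 3354 CPM at 60 min and 4069 CPM in the control, and the laminin gene Lama4 at 475, 245 and 427 CPM. Past 2-fold, the growth factor Ptn was at 1117, 491 and 714 CPM and the potassium channel subunit Kcne3 at 334, 108 and 154 CPM. Cytl1 was at 31.7 and 9.44 CPM, the natriuretic peptide receptor Npr3 at 24.6 and 7.91 CPM and the integrin gene Itga9 at 66.9 and 28.0 CPM. The receptor Kdr, an endothelial marker, was at 813, 493 and 689 CPM. Hba-a1 and Hbb-bs were also lower, from the 1 cell described above.

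Fibroblast-like cells differed in secreted, protease and chaperone genes. Of 4738 genes with enough UMIs, 261 (5.51%) were 2-fold or more higher at 60 min and 214 (4.52%) at 15 min, with 71 cells at 15 min. With median scaling the larger side was the other one, 216 and 305 genes. Mmp13, a collagenase of matrix turnover, was at 6.80 CPM at 15 min, 253 CPM at 60 min and 31.4 CPM in the control, from 4 of 71 and 47 of 305 cells. Hspa1a was at 129, 1733 and 639 CPM and Hspa1b at 44.2, 684 and 242 CPM. The chemokines Cxcl1 and Ccl2 were at 30.6 and 17.0 CPM at 15 min, 367 and 218 CPM at 60 min, and 360 and 179 CPM in the control. Reg1 was at 1.70 and 140 CPM, from 1 and 29 cells. Aqp2, the water channel of the kidney collecting duct, was at 6.80 and 105 CPM, from 2 and 72 cells, and 1500015O10Rik at 71.4 and 563 CPM.

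Several surface and signalling genes of fibroblast-like cells were lower at 60 min. The surface peptidase gene Dpp4 and the complement regulator Cd55 were at 310 and 512 CPM at 15 min, 82.6 and 117 CPM at 60 min, and 157 and 334 CPM in the control. The guidance factor Sema3c was at 464, 106 and 312 CPM and Opcml, a cell adhesion gene, at 214, 43.0 and 65.3 CPM. The steroid enzyme gene Akr1c18 was at 145, 24.3 and 21.8 CPM. Creb5, Cmah and Npr1 were at 412, 245 and 93.5 CPM at 15 min and at 101, 63.6 and 19.0 CPM at 60 min. The matrix gene Dpt was at 866, 329 and 965 CPM. In contrast the periostin gene Postn, a matrix protein of activated stroma, was at 2058, 4693 and 2041 CPM, and the proteoglycan gene Bgn at 2362, 5790 and 1923 CPM.

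**Figure D4:**
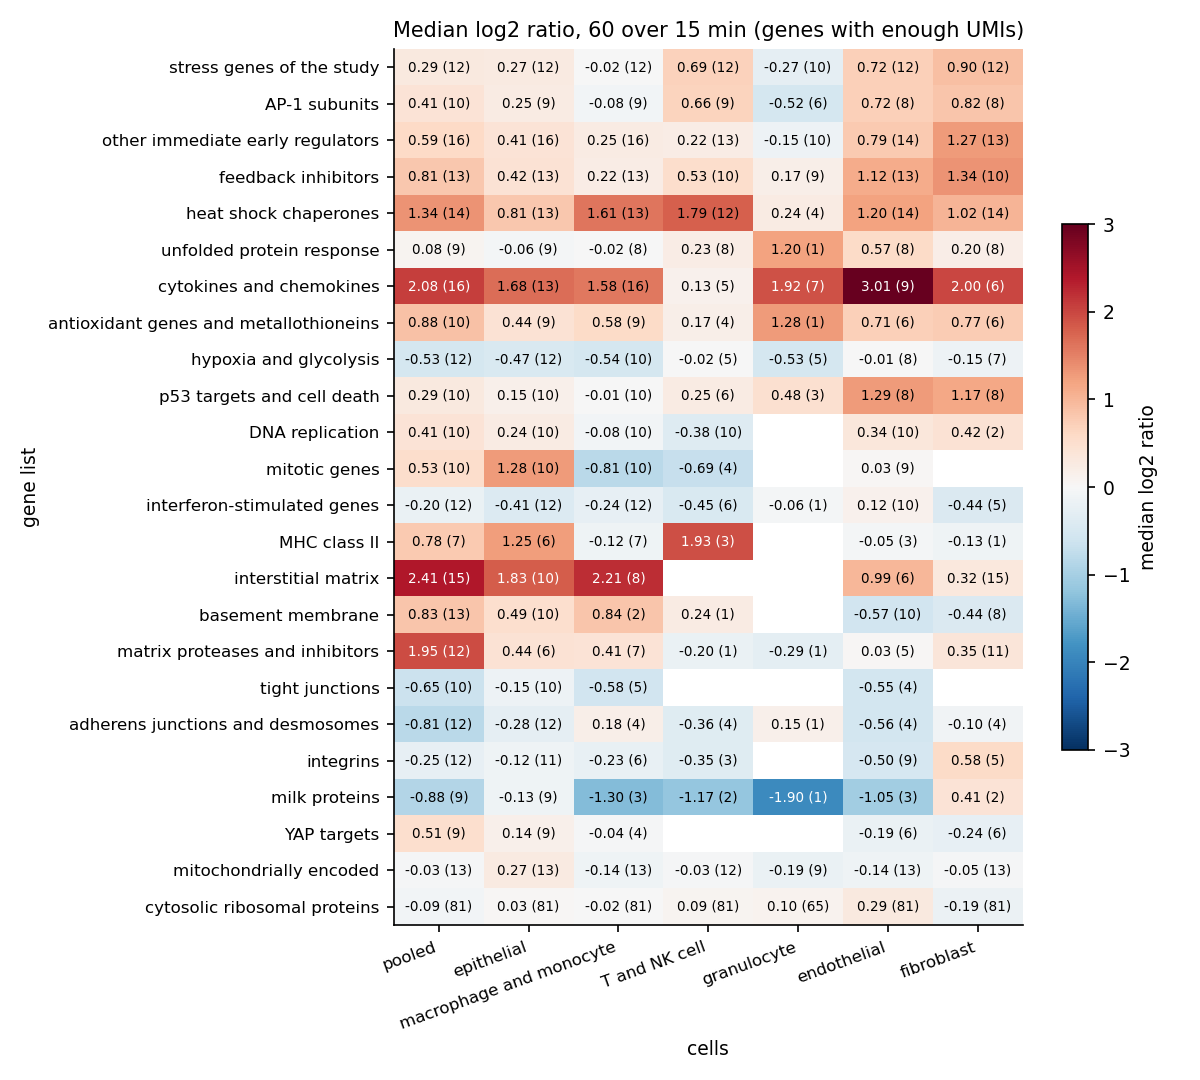
Median log2 ratio, 60 over 15 min, of the fixed gene lists (vertical) in the pooled libraries and in each marker class (horizontal), over members with at least 100 UMIs. The chaperone list is above 0 in every class drawn, from 0.24 in granulocyte-like cells, where the sign depends on the processing, to 1.79 in T- and NK-like cells. The AP-1 list is at -0.08 in macrophage-like cells, 0.05 under median scaling.

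The class differences were also seen from cell to cell at equal depth. Cells were thinned to 2000 UMIs, which left out 296 cells at 15 min and 384 at 60 min. The share of cells with at least 1 UMI of Hspa1a or Hspa1b was 34.3% at 15 min and 72.2% at 60 min in epithelial-like cells, with 52.0% in the control. In macrophage-like cells it was 39.7% and 68.8% (29.97%), in T- and NK-like cells 7.04% and 40.7% (9.44%), in endothelial-like cells 12.3% and 55.4% (31.4%) and in fibroblast-like cells 12.5% and 68.6% (52.5%). Granulocyte-like cells had 5.26% and 15.2%, from 38 and 33 cells deep enough. Without thinning these shares were 65.6% and 86.4% in epithelial-, 55.6% and 85.4% in macrophage-, 10.9% and 50% in T- and NK-, 7.08% and 19.1% in granulocyte-, 26.4% and 72.5% in endothelial- and 35.2% and 81.3% in fibroblast-like cells. No class is known to lack these genes, so no background share can be set, and the part of free RNA was not tested.

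Cytokine transcripts per cell were mostly in myeloid cells. The median macrophage-like cell had 21 cytokine UMIs of 2000 at 15 min, 52 at 60 min and 27 in the control. The median granulocyte-like cell had 54, 161 and 35. Without thinning these medians were 98, 271.5 and 161 in macrophage-like and 62, 166.5 and 45 in granulocyte-like cells. Epithelial-, endothelial- and T- or NK-like cells had a median of 0 or 1 after thinning and of 0 to 2 without it. Without thinning, 44.4% of endothelial-like cells at 15 min and 74.8% at 60 min carried a cytokine UMI. The median macrophage-like cell had 44, 37 and 18 UMIs of the 12 stress genes of the study, against 16, 33.5 and 18 in endothelial-like cells and 13.5, 37 and 34.5 in fibroblast-like cells.

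**Figure D5:**
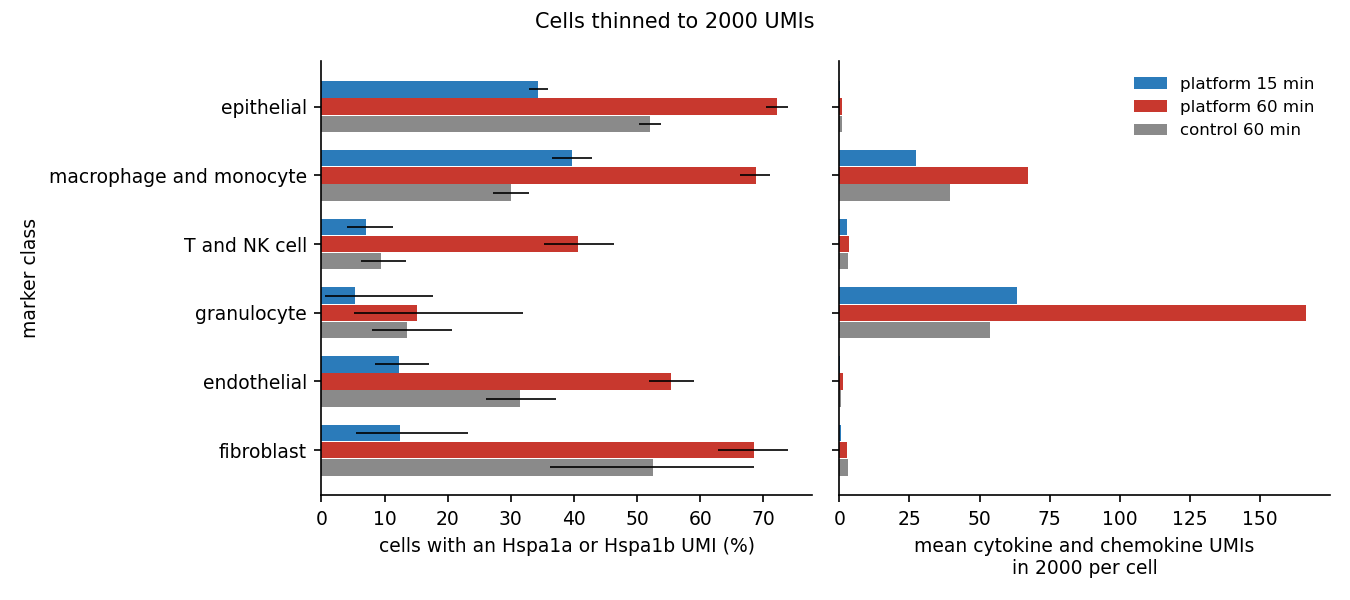
Per-cell values after thinning every cell to 2000 UMIs, by marker class (vertical) and library (colours). Each class has a larger share of cells with an Hspa1a or Hspa1b UMI at 60 than at 15 min. Cytokine UMIs are drawn as means per cell, which go from 27.4 to 67.3 in macrophage-like cells.

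The kidney libraries of the series hold the only other pair of a 15 and a 60 min device interval, from 12 week old male C57BL/6 mice, and their values are set beside those of the tumor for 3 classes. In kidney macrophage-like cells, 146 at 15 min and 1605 at 60 min, the chaperone list had a median log2 ratio of 2.68 and the cytokine list 3.21, against 1.61 and 1.58 in the tumor. In endothelial-like cells, 400 and 2570, these medians were 1.59 and 3.27, against 1.20 and 3.01. In T- and NK-like cells, 168 and 572, they were 1.54 and 1.43, against 1.79 and 0.13. That cytokine median rests on 5 tested genes in kidney. The summed cytokine level of this class had similar log2 ratios, 0.22 in kidney and 0.25 in the tumor. Kidney macrophage-like cells had 2.31 CPM of Ifnb1 at 15 min and 648 CPM at 60 min, against 1.66 and 49.1 CPM in the tumor. Fos was at 3748 and 4516 CPM in those kidney cells, and Egr1 at 872 and 1815 CPM, both higher at 60 min, whereas in tumor macrophage-like cells both were lower at 60 min.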

How the data were processed

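10x Genomics libraries were sequenced, 3 from kidney and 3 from mammary tumor. The authors deposited UMI counts per gene and cell, made with Cell Ranger 3.1.0 on mm10 and aggregated by tissue. The aggregation table deposited with each matrix maps barcode suffixes to libraries and holds no other values used here. Mapped reads were normalized across libraries in that aggregation, so similar depths are in part its product. Cells with 200 to 4000 genes and at most 25% mt- UMIs were kept (kidney: 200 to 3000 and 50%). A cell joined the class with the largest fraction of its markers found, at least 0.3 and 0.1 ahead of the next, basal cells from 0.3 and cycling cells from 0.4 of their markers. These 4 limits were set after seeing the data, and members, markers and lists were chosen with earlier results of these data known. Counts were summed per library and class with Python 3.11.15, numpy 2.4.6 and scipy 1.17.1, and ratios of CPM carry 95% exact conditional intervals. The gene ratios were checked on simulated counts. With 1 library a side no test was run.

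Named genes had at least 100 UMIs and a 2-fold ratio, taking in each direction the 12 (pooled) or 8 (per class) whose interval lay farthest from no difference. Within a class their CPM also had to be at least a fraction of 0.2 of that in the class with the highest level. Members of the fixed lists and markers were named in addition. Alternatives changed the scaling, filters, weights, free RNA and doublets (Scrublet in scanpy 1.11.5), or used Leiden clusters (leidenalg 0.10.2). A cell type is named only by its marker list, and dendritic-like cells were split between the macrophage class and unassigned cells.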

Additional observations from a re-analysis of the deposited data

Results flagged for a closer look

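Summed levels at 60 over 15 min were set beside those of kidney for 64 pairs of a gene list and a cell class. In 13 pairs the directions were opposite with both counting intervals clear of no difference. Pairs of opposite sign with an interval that reached no difference were not counted. In 2 of them both ratios were at least 1.2-fold. The AP-1 subunits in macrophage-like cells had a log2 ratio of -0.35 in the tumor and 0.69 in kidney. The interferon-stimulated genes in T- and NK-like cells had -0.46 in the tumor and 0.41 in kidney. Each side is 1 library per interval, strain, sex and age differ between the tissues, and the difference was not tested.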

How the results depend on the processing

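No paired analysis was possible because each interval is 1 library and the labels give no replicate numbers. Of 120 ratios of named genes, counted per class, 120 kept their side and 2-fold under median scaling and without mt- genes in the total, 118 with the mean of per-cell shares, 115 with the lower limit of 200 genes only and 115 without Scrublet doublets. Under Leiden clusters 93 of 96 did, and with free RNA taken off 94 of 95. Without the cell holding most UMIs of the gene in each library 114 of 120 did. That last alternative, and a stricter marker rule for the shares, were chosen after seeing the data. The share differences moved little in 35 of 37 trials, the exceptions being fibroblasts (6.83 points with the lower limit only) and granulocytes (-0.105 when thinned).

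Counts of genes past 2-fold depended on the low-count filter, in part by construction, since it sets how many genes are compared. With at least 20 UMIs, genes higher at 60 and at 15 min were 529 and 342 in epithelial-, 518 and 546 in macrophage-, 365 and 469 in T- and NK-, 177 and 321 in granulocyte-, 383 and 481 in endothelial- and 676 and 829 in fibroblast-like cells, and pooled 934 were higher at 15 min. With at least 1 UMI in each library they were 2067 and 1693 pooled, then 1195 and 789, 909 and 1223, 832 and 1256, 861 and 1185, 619 and 1322, and 822 and 1911 in that order of classes. Median scaling left 326 pooled, 52 epithelial, 118 macrophage and 54 endothelial genes higher at 15 min. The mean of per-cell shares gave 120 in T- and NK-like cells, and the lower limit alone 57 in granulocyte- and 356 in fibroblast-like cells.

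Of the list medians (log2), median scaling gave 0.47 for the stress genes of the study, 1.52 for chaperones and 2.26 for cytokines pooled, and for the stress genes 0.45, 0.11, 0.78 and 0.77 in epithelial-, macrophage-, endothelial- and fibroblast-like cells. Chaperones were at 0.99 and 1.73 in the first 2 of these, and cytokines at 1.71 in macrophage-like cells. The mean of per-cell shares gave cytokines 1.85 pooled, 1.37 epithelial and 1.52 macrophage, chaperones 0.72, 1.48 and in granulocyte-like cells -0.45, and stress genes 0.36 epithelial, -0.66 granulocyte and 1.06 fibroblast. With the lower limit alone, stress genes were at 0.26 pooled, 0.014 macrophage and 0.78 fibroblast, chaperones at 1.27 pooled, and cytokines at 1.99 endothelial and 1.04 fibroblast. The unfolded protein response and antioxidant lists of granulocyte-like cells turned to -0.23 and -0.42 there.

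Taking off free RNA gave cytokines 0.95 in epithelial-, -0.37 in T- and NK- and 2.36 in granulocyte-like cells, where stress genes were at -1.35 and chaperones at -3.28, and turned interstitial matrix to -1.87 in macrophage-like cells. Leiden clusters gave T- and NK-like cells 0.53 for stress genes and 1.04 for cytokines. In granulocyte-like cells they gave 0.21 for stress genes and turned milk proteins to 0.33, Fabp4 to -0.019 and Ltf to 0.18. Without Scrublet doublets Hba-a1 and Hbb-bs turned to 1.03 and 2.25 pooled and 0.10 and 1.79 in endothelial-like cells. Without the top cell of each library they were at 0.48 and 1.19 pooled, and Hbb-bs at 0.36 in endothelial-like cells. Cytokines were then at 1.67 in macrophage- and stress genes at 1.00 in fibroblast-like cells. Where no construction is named, the cause was not tested.

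The depth limits the granulocyte sums most, with 247210 and 158958 UMIs, and the spread between tumors was not measured.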

Other observations

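Other marker lists gave further differences over the pooled cells. Red cell markers summed to 37.2 CPM at 15 min, 3.19 CPM at 60 min and 186 CPM in the control, and the 15 min value rests on the 1 cell with most hemoglobin UMIs. Mast cell markers were at 128, 57.6 and 75.2 CPM, Schwann cell markers at 106, 46.2 and 57.0 CPM, and adipocyte markers at 125, 483 and 121 CPM. The Schwann cell markers did not share 1 direction. Of 4 with enough UMIs, 1 was 2-fold or more higher at 60 min and 1 at 15 min. Most of the mast cell sum was Kit, at 117, 56.4 and 72.9 CPM, a gene also expressed by epithelial cells. Fabp4 of the adipocyte list, at 117 and 473 CPM, is also expressed by endothelial cells. The B and plasma cell markers were at 4.01 and 6.45 CPM, a 1.61-fold difference (1.36 to 1.91), and all 6 were higher at 60 min.

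In endothelial-like cells the 81 cytosolic ribosomal protein genes had a median log2 ratio of 0.29, and 78 of them were above 0, whereas in fibroblast-like cells the median was -0.19 and 6 were above 0. None (0 of 81) reached 2-fold in either class. The 13 mitochondrially encoded genes had a median of 0.27 in epithelial-like cells and of -0.14 in macrophage- and endothelial-like cells. YAP target genes summed to 469 and 860 CPM in epithelial-like cells, although their median was 0.14.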
